A study of Ovis aries with 6 samples.

Results

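Molecular chaperones and heat shock proteins were compared between 2 kinds of cultured sheep (Ovis aries) cells, labelled as epidermal stem cells of the skin and epithelial cells of the cornea. The members were chosen by name alone: gene probes whose array annotation mentions heat shock, chaperones, DnaJ, T-complex protein, crystallin, calreticulin, calnexin, protein disulfide isomerase or peptidyl-prolyl isomerase, or whose gene name starts with HSP, DNAJ, CCT and a number, or CRYA. This gave 39 of the 15008 probes on the array, which stand for 25 of 14453 genes and unnamed transcripts. By textbook location of the encoded protein, 16 genes were cytosolic or nuclear, 6 belonged to the endoplasmic reticulum (ER), 1 was mitochondrial, and 2 were set apart as a structural lens crystallin and a peptidyl-prolyl isomerase with no family name. The epidermal group had 3 samples from skin and the corneal group 3 samples of corneal epithelial cells, which the series' design text describes as cell lines, each on 1 single-colour (Cy3) array. All 6 were adherent cultures detached with trypsin before RNA extraction. No other agent, genotype, breed or age is given in the sources used here, nor whether the lines came from separate animals, so the p-values cover the spread among these 6 samples alone, and that spread may be technical.

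Chaperones help other proteins to reach and keep their folded shape. In the cytosol, J-domain proteins hand unfolded clients to the ATP-driven HSP70 machines, nucleotide exchange factors release them, HSP90 matures signalling proteins, the ring-shaped chaperonin TRiC folds actin and tubulin, and small heat shock proteins hold damaged clients without using ATP. In the ER, the HSP70 family member BiP, the lectin chaperones calreticulin and calnexin, and the protein disulfide isomerases fold secreted and membrane proteins such as collagens and matrix components. The small heat shock protein CRYAB is best known as alpha-B crystallin of the eye lens and is also made in other tissues.

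The probes of the members on which the comparison turns are shown here as the sequences that were measured, each 60 bases long and printed 5′ to 3′. CRYAB and PDIA5 had the largest changes, and CALR and DNAJA1 were the next clearest in the ER and among the J-domain proteins. The CRYAB probe is printed only up to its stop codon, in capitals, as 45 of its bases.
CRYAB: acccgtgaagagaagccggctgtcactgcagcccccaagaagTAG
PDIA5: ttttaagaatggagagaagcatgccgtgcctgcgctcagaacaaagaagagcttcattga
CALR: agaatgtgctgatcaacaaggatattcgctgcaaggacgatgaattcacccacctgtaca
DNAJA1: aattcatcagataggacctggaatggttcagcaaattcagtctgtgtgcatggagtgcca

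Further sets of probes show how far probes of a gene are separate measurements. The 2 HSPA5 probes lie next to each other on the transcript and share no base. The 2 TCP1 probes share 13 bases, in capitals. The 3 HSPA1A probes overlap by 55 to 58 bases, so they are close to 1 measurement made 3 times. The first differs from the others by the substitution A50T, counted from 1 at its 5′ end and in capitals.
HSPA5 probe 1: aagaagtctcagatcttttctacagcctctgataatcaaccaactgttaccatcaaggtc
HSPA5 probe 2: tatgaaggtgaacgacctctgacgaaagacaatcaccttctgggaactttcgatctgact
TCP1 probe 1: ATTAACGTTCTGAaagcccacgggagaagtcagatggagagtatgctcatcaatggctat
TCP1 probe 2: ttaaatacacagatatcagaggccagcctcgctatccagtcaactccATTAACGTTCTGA
HSPA1A probe 1: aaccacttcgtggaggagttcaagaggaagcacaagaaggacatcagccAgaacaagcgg
HSPA1A probe 2: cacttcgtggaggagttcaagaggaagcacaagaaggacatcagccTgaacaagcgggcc
HSPA1A probe 3: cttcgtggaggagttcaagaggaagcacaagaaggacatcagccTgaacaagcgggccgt

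The arrays held 15208 gene spots, of which 11091 to 12414 were well above background. That is 80.2% ± 2.36 (SD, n = 3) of spots for epidermal arrays against 74.1% ± 1.56 (SD, n = 3) for corneal ones. An exact permutation test (two-sided) of that share gave p = 0.1, its minimum for 3 arrays against 3. No spot was saturated. Precision is limited by having 3 arrays a group. The 6 arrays shared 1 slide and 1 scan, but each group filled a slide row of its own (epidermal row 1, corneal row 2), and what belongs to the row cannot be told apart from what belongs to the cell type. The defining keratinocyte markers were dim: the TP63 probes were well above background on 0 of 6 arrays, and the KRT14 probe on 2 epidermal and 0 corneal arrays. Of 3 keratinocyte markers measured, 0 were higher and 1, SFN, was lower in corneal cells. SFN did not pass under quantile normalization, in the authors' log2 table or with normexp background correction of all spots. It did not pass either with the normexp correction that leaves out spots of extreme background, where its change was −0.02. PAX6, the only corneal marker with a probe, was higher (log2 change 0.31 ± 0.07 SE), but not without scaling (0.13) nor with normexp background correction of all spots (−0.26). Of 8 mesenchymal markers, 1 was higher and 4 were lower in corneal cells, beside 26.7% higher and 32.6% lower over all rows tested. COL3A1 fell by 4.51, and POSTN was at least 59.7-fold lower. VIM (8.65 and 8.60), DCN (8.07 and 8.15), COL1A1 (7.10 and 6.55), COL1A2 (7.22 and 7.14) and LUM (4.83 and 4.43) were bright in the epidermal and corneal group. POSTN was not (−0.42 and −7.13). The keratinocyte markers KRT15 (−6.40 and −6.54) and DSP (−5.68 and −6.05) were dim in both groups, while PAX6 was well above background in both. The group names are those of the labels, and the keratinocyte markers do not bear out an epithelial identity. These counts and levels rest on 1 probe per gene, and other probes differed. A second DCN probe (−0.44 ± 0.03 SE) and a second COL1A2 probe (−0.26 ± 0.04 SE) passed as lower in a limma fit with every probe as a row. In that fit a second COL1A1 probe (−0.24 ± 0.09 SE) did not pass. The only measured immune marker, CD14, was lower by a log2 change of −0.66 ± 0.03 (SE). Both other CD14 probes fell less (−0.30 and −0.34). With normexp correction of all spots CD14 changed by −0.43 and did not pass. VWF, the only measured endothelial marker, was at least 1.46-fold lower. Its change was 0.05 with the normexp correction that leaves out spots of extreme background. No corneal array showed VWF or POSTN well above background, so both entered the test only through the epidermal arrays, where they were higher. The probes of KDR, FLT1 and CDH5 were not kept, so VWF alone does not speak for endothelial cells. No melanocyte marker was measured. The part of these cell type markers in the results below was not tested. In bulk RNA, fewer cells of a type and less RNA per cell cannot be told apart.

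The comparison asks which chaperone transcripts differ between corneal and epidermal cells. Levels are normalized log2 signals, the log2 processed signal of a probe minus the 75th percentile of its array, and a change is the corneal minus the epidermal mean with its standard error from limma (n = 3 and 3). P-values are adjusted by Benjamini-Hochberg over all 11400 rows tested, and a gene passed at an adjusted p under 0.05. Of the 25 genes, 24 were measured, and 9 were higher and 9 lower in corneal cells. Over all rows tested, 26.7% were higher and 32.6% lower. Together 75% of the measured members passed, against 59.3% of all rows, and the members' median absolute change was 0.25 against 0.24. The median signed change was −0.06 for the members and −0.04 for all rows. A change of at least 2-fold was reached by 2 members, CRYAB and PDIA5, while 7.42% of all rows were called and reached it. The arrays of the 2 groups did not overlap for 18 of 24 members and for 67.4% of all rows. The plot of the changes by compartment shows that the members moved both ways.

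**Figure D1:**
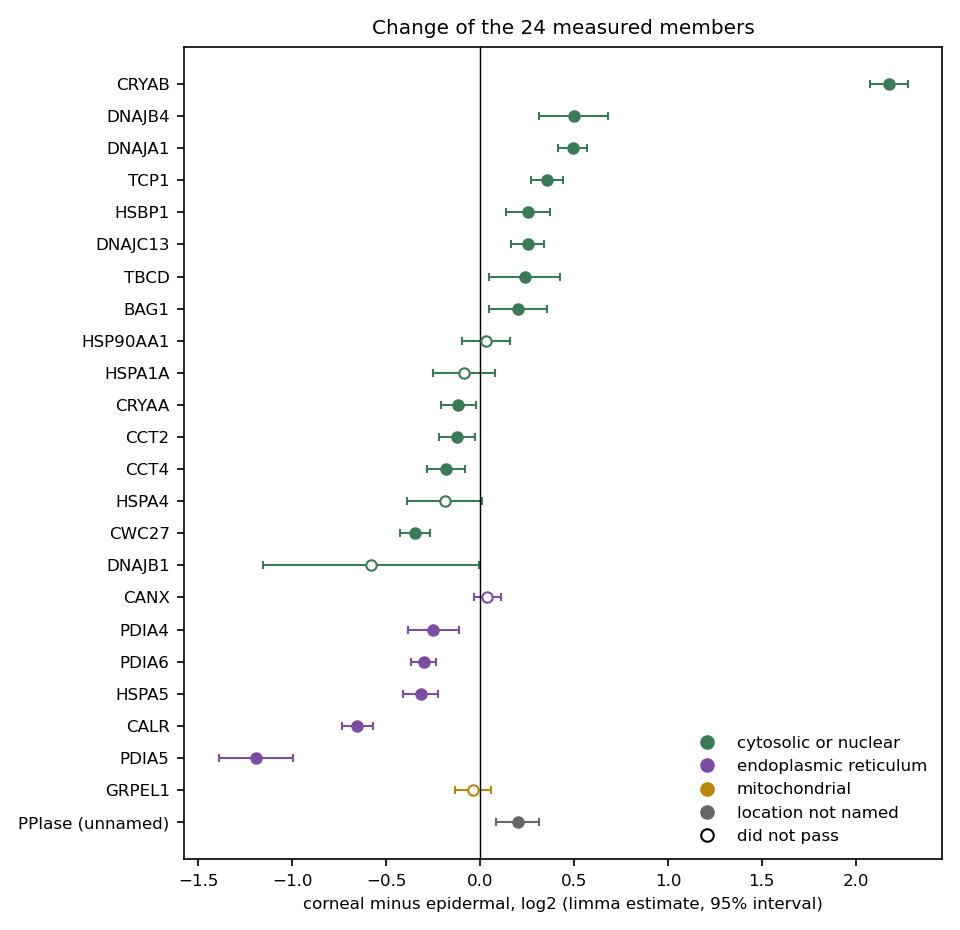
Fitted change in corneal minus epidermal cells (log2, x axis) of the 24 measured genes, with 95% confidence intervals, coloured by the location of the protein. Open circles did not pass. CRYAB stands alone at 2.18, the ER members below CANX are all below 0, and the cytosolic members lie on both sides. Under 1 of the background corrections tried, DNAJB4, TBCD, CCT2 and CCT4 changed sign.

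Most ER members were lower in corneal cells on the probe that stands for each. Of the 6, 0 were higher and 5 lower, with a median change of −0.31, beside 26.7% higher and 32.6% lower over all rows. The sixth, CANX, did not pass. The mean level of the 6 ER genes in replicates 1, 2 and 3 was 2.19, 2.14 and 2.18 for epidermal cells and 1.71, 1.75 and 1.72 for corneal cells. Every corneal array was thus below every epidermal array. The lower calls of PDIA5, CALR, HSPA5 and PDIA6 held with each array left out and under each way of scaling. With normexp background correction of all spots, PDIA5 alone of the ER members passed.

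PDIA5, a protein disulfide isomerase that makes and rearranges disulfide bonds in the ER, showed the largest fall of any member. In the same order of replicates its level was 2.44, 2.15 and 2.39 for epidermal cells and 1.12, 1.14 and 1.14 for corneal cells. The corneal arrays lay more than 1 log2 unit below the lowest epidermal array. The means were 2.33 ± 0.15 and 1.14 ± 0.01 (SD, n = 3), and the change of −1.19 ± 0.08 (SE) was 2.29-fold (limma adjusted p = 8.73e-05). Of the 11400 rows, 394 fell further (3.46%).

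CALR encodes calreticulin, the soluble lectin chaperone that binds calcium and glycoproteins in the ER. Its level was 0.85, 0.78 and 0.80 in the epidermal and 0.17, 0.18 and 0.12 in the corneal arrays. The groups were separate, with a spread of 0.03 (SD) within each. The fall of CALR was −0.65 ± 0.03 (SE), or 1.57-fold (limma adjusted p = 3.26e-05). CANX, its membrane-bound relative calnexin, read 0.07, 0.05 and 0.07 in epidermal and 0.12, 0.11 and 0.07 in corneal arrays. These overlapped, and the change of CANX was 0.04 ± 0.03 (SE; 95% interval −0.03 to 0.11; limma adjusted p = 0.31). A second CANX probe, 347 bases away on the same transcript, read −0.77, −0.66 and −0.71 against −0.49, −0.54 and −0.56. On that probe the corneal arrays were higher, by 0.19 ± 0.04 (SE; adjusted p = 0.011 in a limma fit with every probe as a row). Neither CANX probe was lower in corneal cells. The difference between the changes of CALR and CANX was not tested.

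HSPA5, or BiP, the HSP70 of the ER lumen and a widely used reporter of ER stress, was measured by both probes shown above. Probe 1 read 2.68, 2.75 and 2.70 in epidermal and 2.36, 2.44 and 2.38 in corneal arrays, and probe 2 read 2.52, 2.52 and 2.55 against 2.24, 2.24 and 2.23. On both, all corneal arrays were lower than all epidermal arrays. The changes were −0.32 ± 0.04 (SE; limma adjusted p = 0.000855) and −0.29, from stretches with no shared base.

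PDIA6, another disulfide isomerase of the ER, read 6.311, 6.337 and 6.315 in epidermal and 6.025, 6.033 and 6.002 in corneal arrays. Its arrays agreed within 0.02 (SD) in each group, and the fall was −0.30 ± 0.03 (SE; limma adjusted p = 0.000292). PDIA4, likewise an ER isomerase, was less clear. The probe that stands for it read 0.80, 0.77 and 0.82 against 0.44, 0.61 and 0.60, a change of −0.25 ± 0.05 (SE; limma adjusted p = 0.0104). Both other PDIA4 probes overlapped between the groups, with changes of 0.07 ± 0.10 and 0.01 ± 0.08 (SE; adjusted p = 0.579 and 0.918 in the fit by probe). The PDIA4 call therefore rests on 1 of 3 probes, and when names taken from descriptions were not used it was 0.07 and did not pass.

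**Figure D2:**
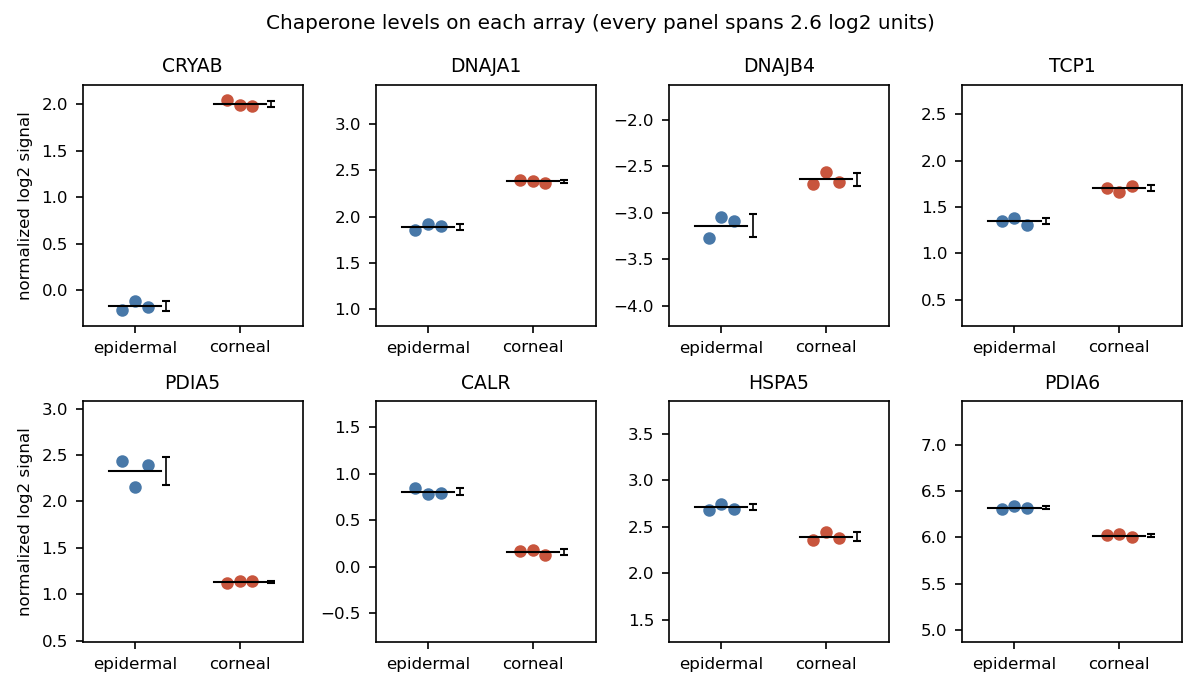
Normalized log2 signal (y axis) of 8 members in the 3 epidermal and the 3 corneal arrays. Each point is an array, the line is the group mean and the bar beside it the SD. Every panel spans 2.6 log2 units, so distances can be compared between panels but levels cannot. CRYAB, DNAJA1, DNAJB4 and TCP1 (upper row) were higher in corneal cells, DNAJB4 with 1 background correction turning its sign, and PDIA5, CALR, HSPA5 and PDIA6 (lower row) were lower.

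Cytosolic and nuclear chaperones moved in both directions. Of 16 genes, 8 were higher and 4 lower in corneal cells, with a median change of 0.12, and 4 did not pass, beside 26.7% higher and 32.6% lower over all rows. Without scaling between arrays the balance turned, to 3 higher and 6 lower. The 2 small heat shock proteins went opposite ways, though the call of CRYAA was lost under many alternatives. The chaperonin subunits also moved both ways, and the HSP70, HSP90 and HSP110 genes did not pass on the probe that stood for each.

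CRYAB rose more than any other member. Its level in replicates 1, 2 and 3 was −0.22, −0.11 and −0.18 for epidermal cells and 2.05, 1.99 and 1.98 for corneal cells. The corneal arrays were far above all epidermal arrays, at a group SD of 0.05 and 0.04. The change was 2.18 ± 0.04 (SE), or 4.52-fold (limma adjusted p = 1e-06), and 81 of the 11400 rows rose further (0.711%). The call held under every alternative tried. CRYAA, the alpha-A crystallin otherwise best known from the lens, read −1.93, −1.83 and −1.87 in epidermal and −2.03, −1.98 and −1.96 in corneal arrays. The corneal values were slightly lower, by −0.12 ± 0.04 (SE; limma adjusted p = 0.0423), and a second probe that overlaps the first by 59 bases fell by 0.21. The CRYAA call was lost without epidermal replicate 2 or 3 and without corneal replicate 1, 2 or 3 (adjusted p 0.0664 to 0.12). It was also lost with median centring, without the filter on dim probes, with the replicate block and with both normexp corrections.

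J-domain proteins, the co-chaperones that stimulate HSP70, had 3 of 4 members higher and 0 lower. Over all rows, 26.7% were higher and 32.6% lower. DNAJA1 read 1.85, 1.92 and 1.89 in epidermal and 2.40, 2.38 and 2.36 in corneal arrays. The groups were separate by many times their SD, and the change was 0.49 ± 0.03 (SE), or 1.41-fold (limma adjusted p = 7.01e-05). DNAJB4, another cytosolic J-domain protein, read −3.28, −3.05 and −3.09 against −2.69, −2.56 and −2.67. Its corneal arrays were higher by 0.50 ± 0.07 (SE), also 1.41-fold (limma adjusted p = 0.00206), but its change was −0.20 and did not pass with normexp correction of all spots. DNAJC13, a J-domain protein of endosomes, read 0.53, 0.58 and 0.57 against 0.76, 0.83 and 0.84 and rose by 0.25 ± 0.03 (SE; limma adjusted p = 0.0016), but by 0.08 without scaling, where it did not pass.

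DNAJB1, the stress-inducible J-domain partner of HSP70, was near background. It read −5.82, −6.30 and −5.71 in epidermal arrays, where it was well above background on all 3, and −6.73, −6.72 and −6.12 in corneal arrays, where it was so on 0. It entered the test only through the epidermal arrays. The groups overlapped, since corneal replicate 3 was above epidermal replicate 2. Its corneal level has only a bound. On each corneal array this is the lowest signal well above background, or the probe's own where that was higher. By this bound the corneal mean was at least 1.25-fold below the epidermal mean. The bound holds for this processing alone and, as the groups overlapped, is no firm minimum. The fitted change of −0.58 ± 0.23 (SE) did not pass (limma adjusted p = 0.0768), and it was 0.08 with the normexp correction that leaves out spots of extreme background. It passed without epidermal replicate 2 (−0.76, adjusted p = 0.038) and without corneal replicate 3 (−0.78, adjusted p = 0.0233).

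HSP70 and HSP90 showed no difference past the threshold. HSPA1A, the stress-inducible HSP70, read −2.03, −2.21 and −2.24 in epidermal and −2.28, −2.26 and −2.19 in corneal arrays. The values overlapped, with a change of −0.09 ± 0.07 (SE; 95% interval −0.25 to 0.08; limma adjusted p = 0.312), and both other probes changed by −0.02 and 0.01. These probes lie in a coding stretch that near-identical HSP70 genes may share, so the signal cannot be credited to HSPA1A alone. HSP90AA1, the inducible cytosolic HSP90, read 0.46, 0.33 and 0.29 against 0.40, 0.41 and 0.36, a change of 0.03 ± 0.05 (SE; 95% interval −0.10 to 0.16; limma adjusted p = 0.632). A probe of a separate transcript, named HSP90AA1 by hand from its annotation, was lower, −1.65, −1.63 and −1.70 against −1.80, −1.86 and −1.79 (−0.15 ± 0.03 SE; adjusted p = 0.011 in the fit by probe). Whether that transcript comes from HSP90AA1 was not checked, so its change cannot be credited to that gene. HSPA4, an HSP110-type exchange factor, read 1.53, 1.31 and 1.42 against 1.11, 1.33 and 1.24, with overlapping groups and a change of −0.19 ± 0.08 (SE; 95% interval −0.39 to 0.01; limma adjusted p = 0.0895). Its second probe was well above background on 0 arrays.

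Subunits of the chaperonin TRiC, which all sit in 1 complex, moved in both directions. TCP1, its alpha subunit, read 1.35, 1.38 and 1.31 in epidermal and 1.71, 1.66 and 1.73 in corneal arrays. The second TCP1 probe, sharing the 13 bases shown in capitals, read 0.938, 0.993 and 0.816 against 1.321, 1.298 and 1.313. On both, the corneal arrays were higher, by 0.35 ± 0.03 (SE; limma adjusted p = 0.000384) and 0.39. Without scaling between arrays the change of TCP1 was 0.18 and did not pass. CCT2, the beta subunit, read 3.23, 3.34 and 3.26 against 3.14, 3.14 and 3.18 and was lower by −0.12 ± 0.04 (SE; limma adjusted p = 0.0343). This call was lost without epidermal replicate 2 or 3 or any 1 corneal replicate (adjusted p 0.0602 to 0.0992), and the change was 0.05 with normexp correction of all spots. CCT4, the delta subunit, read 3.28, 3.39 and 3.33 against 3.18, 3.15 and 3.11 and was lower by −0.18 ± 0.04 (SE; limma adjusted p = 0.0108). A second CCT4 probe, 677 bases away, changed by 0.05 ± 0.03 (SE; adjusted p = 0.225 in the fit by probe) and the first by 0.03 with normexp correction of all spots. Differences between the subunits were not tested.

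The other cytosolic and nuclear members changed by 0.35 or less. HSBP1, which binds the heat shock factor HSF1, read 1.50, 1.57 and 1.42 in epidermal and 1.75, 1.73 and 1.78 in corneal arrays. Its corneal arrays were all higher, by 0.26 ± 0.05 (SE; limma adjusted p = 0.00515), but without scaling between arrays the change was 0.08 and did not pass. BAG1, a nucleotide exchange factor of HSP70, rose by 0.20 ± 0.06 (SE; limma adjusted p = 0.0332), from a range of −0.16 to −0.10 to one of −0.00 to 0.21. The BAG1 call was lost without scaling (0.03) and without epidermal replicate 1, 2 or 3 or corneal replicate 1 (adjusted p 0.0556 to 0.0903). TBCD, a cofactor in tubulin folding, rose by 0.24 ± 0.08 (SE; limma adjusted p = 0.0387), from −2.13 to −1.95 in epidermal to −1.93 to −1.70 in corneal arrays, and the change was −0.21 with normexp correction of all spots. Its call was lost without scaling (0.07) and without epidermal replicate 1 or 3 or corneal replicate 1 or 3 (adjusted p 0.0837 to 0.108), and a second probe of that name changed by −0.17 ± 0.11 (SE; adjusted p = 0.244 in the fit by probe). CWC27, a peptidyl-prolyl isomerase of the spliceosome, read −0.45, −0.40 and −0.42 against −0.76, −0.75 and −0.81. The corneal arrays were all lower, by −0.35 ± 0.03 (SE; limma adjusted p = 0.000313).

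**Figure D3:**
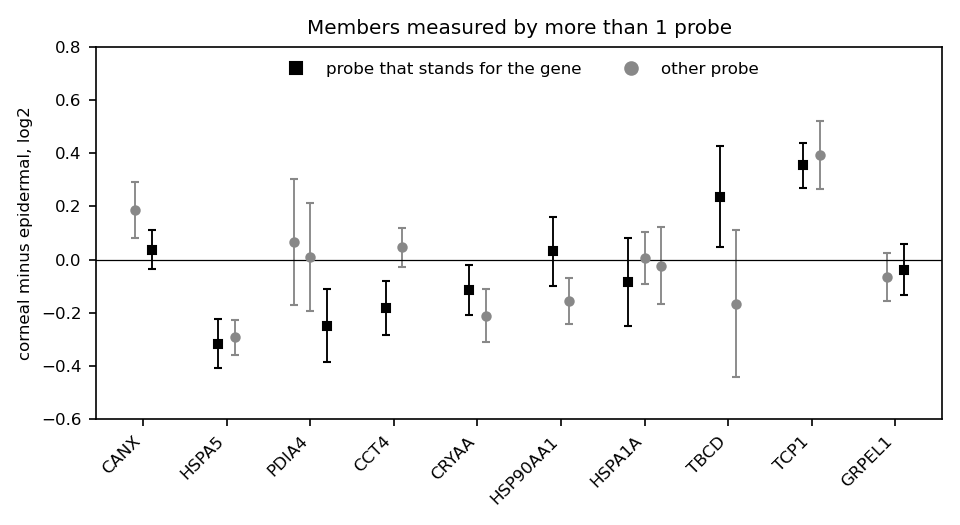
Change in corneal minus epidermal cells (log2, y axis) with 95% confidence intervals for each measured probe of the 10 members with more than 1. Squares are the probes that stand for the gene. The probes of HSPA5, CRYAA, TCP1, CANX and GRPEL1 lie on the same side of 0. Those of PDIA4, CCT4, HSP90AA1, TBCD and HSPA1A lie on both sides. The other HSP90AA1 probe is of a separate transcript that was not checked to come from that gene.

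Of the 10 genes with at least 2 measured probes, 5 had the same call on every probe in the fit by probe. HSPA5 and CRYAA were lower on both probes, TCP1 was higher on both, and neither HSPA1A nor GRPEL1 passed on the probes found by the name rule. The probes of CRYAA overlap by 59 bases, those of GRPEL1 by 57 and those of HSPA1A by 55 to 58. Agreement within these genes is thus close to repeating 1 measurement. Among genes whose probes share few bases or none, only HSPA5 and TCP1 had the same call on every probe. CANX, PDIA4, CCT4, HSP90AA1 and TBCD differed between probes in whether they passed. For HSP90AA1 this may be no difference within a gene, as its other probe was not checked to measure it.

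GRPEL1, the exchange factor of the mitochondrial HSP70, was the only mitochondrial member. It read −0.66, −0.77 and −0.72 in epidermal and −0.75, −0.77 and −0.75 in corneal arrays. The groups overlapped, and the change was −0.04 ± 0.04 (SE; 95% interval −0.13 to 0.06; limma adjusted p = 0.43). Another GRPEL1 probe, whose annotation the name rule does not cover, read 3.102, 3.104 and 3.088 against 2.949, 2.936 and 2.891. On it all corneal arrays were lower, by −0.17 ± 0.03 (SE; adjusted p = 0.00374 in the fit by probe). The unnamed peptidyl-prolyl isomerase read 7.53, 7.66 and 7.66 against 7.83, 7.80 and 7.82 and rose by 0.20 ± 0.05 (SE; limma adjusted p = 0.0116). Without scaling its change was 0.03 and did not pass. CRYBB3, a structural beta crystallin of the lens with no chaperone role, was well above background on 0 of 6 arrays on both probes, so no change is given.

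**Figure D4:**
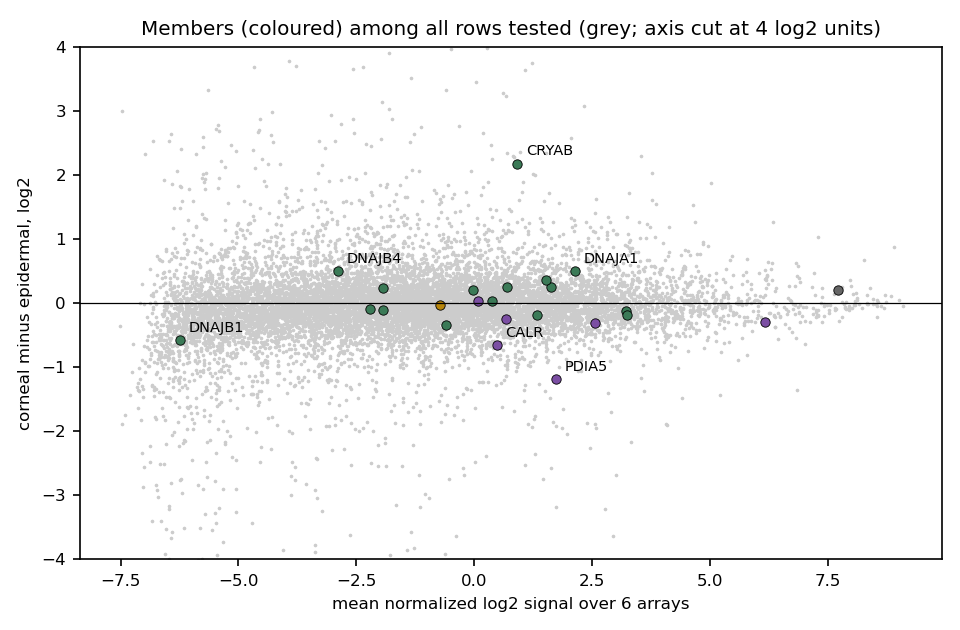
Change in corneal minus epidermal cells (log2, y axis, cut at 4) against the mean normalized log2 signal over 6 arrays (x axis) for all 11400 rows tested in grey and the 24 measured members in colours by location, as in the plot of changes by compartment. CRYAB and PDIA5 lie at the edge of the grey cloud and most members within it. DNAJB1 lies at the dim end, and DNAJB4, marked above 0, changed sign with 1 background correction.

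Regulators and partners of the heat shock machinery were counted in a list of 29 genes, of which 5 had a measured probe. HSBP1 and BAG1, both members as well, were the 2 that rose, and 3 were lower, beside 26.7% higher and 32.6% lower over all rows. UBB, a polyubiquitin gene, read 7.80, 7.94 and 7.90 in epidermal and 7.61, 7.60 and 7.58 in corneal arrays (−0.28 ± 0.05 SE; limma adjusted p = 0.0029). SQSTM1, the autophagy receptor p62, changed by −0.24 ± 0.03 (SE; limma adjusted p = 0.00119) and by 0.01 with normexp correction of all spots. STIP1, the adaptor between HSP70 and HSP90, read 0.73, 0.76 and 0.77 against 0.57, 0.51 and 0.52 (−0.22 ± 0.03 SE; limma adjusted p = 0.0018). The median of the 5 was −0.22.

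Of 44 genes of the unfolded protein response and ER quality control, 8 were measured, 2 were higher, 3 lower and 3 did not pass, with a median of −0.13. The share that passed was close to the 59.3% of all rows. DDIT3, the stress factor CHOP, fell most, from −3.575, −3.375 and −3.588 to −4.001, −4.032 and −4.001 (−0.50 ± 0.06 SE; limma adjusted p = 0.00121). ATF4, the transcription factor upstream of DDIT3, was higher, 3.535, 3.604 and 3.607 against 3.898, 3.881 and 3.893 (0.31 ± 0.03 SE; limma adjusted p = 0.000532), although without scaling between arrays its change of 0.14 did not pass. KDELR2, the receptor that returns escaped ER proteins, changed by −0.26 ± 0.04 (SE; limma adjusted p = 0.00205), and ATF6, an ER stress sensor, by −0.19 ± 0.06 (SE; limma adjusted p = 0.0323). ATF6 did not pass without epidermal replicate 2 or 3 or corneal replicate 1 or 2 (changes −0.21 to −0.14). DERL1, a channel subunit of ER-associated degradation, rose by 0.13 ± 0.04 (SE; limma adjusted p = 0.0345), but was −0.04 without scaling and passed with 1 array left out only when that was epidermal replicate 2 (0.11 to 0.14 without the others). XBP1, the spliced ER stress factor, changed by −0.09, PRKCSH by −0.16 and VCP by 0.00, and none of these 3 passed. Of 20 genes of mitochondrial import and proteolysis, TIMM9 (−0.01) and GRPEL1 were measured. On the GRPEL1 probe that stands for the member 0 passed in either direction, while the probe outside the name rule was lower, as given above.

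The name rule leaves out some folding genes, and 7 of these were listed after their annotation had been read. Of these, 3 were higher, 3 lower and PPIE did not pass (−0.00), beside 26.7% higher and 32.6% lower over all rows. HYOU1, the large HSP70-like chaperone of the ER, read −1.21, −1.17 and −1.22 in epidermal and −1.79, −1.90 and −1.72 in corneal arrays. All corneal arrays were lower, by −0.60 ± 0.05 (SE; limma adjusted p = 0.000285), and both other HYOU1 probes fell by 0.61 and 0.49. FKBP9, an ER peptidyl-prolyl isomerase, changed by −0.50 ± 0.05 (SE; limma adjusted p = 0.000366) and ERP44, which retains client proteins in the early secretory pathway, by −0.27 ± 0.04 (SE; limma adjusted p = 0.00166). ER genes also rose. PPIB, the ER cyclophilin that assists collagen folding, read 4.10, 4.26 and 4.15 against 4.61, 4.61 and 4.62 (0.44 ± 0.05 SE; limma adjusted p = 0.000526). TXNDC12, a thioredoxin-like protein of the ER, read 1.21, 1.24 and 1.21 against 1.79, 1.70 and 1.71 (0.51 ± 0.04 SE; limma adjusted p = 0.000114). The lower direction seen in 5 of 6 ER members was therefore not shared by every ER folding gene on the array. DNAJC19, a J-domain protein of the mitochondrial import motor, rose by 0.33 ± 0.03 (SE; limma adjusted p = 0.000483), but its change of 0.16 without scaling did not pass.

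**Figure D5:**
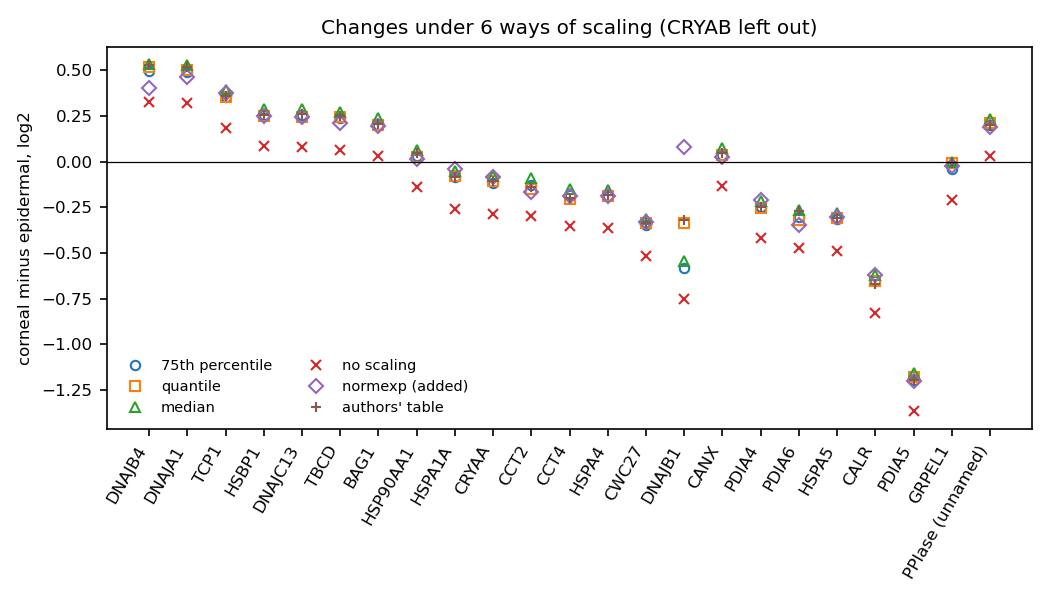
Change in corneal minus epidermal cells (log2, y axis) of 23 members, CRYAB left out, under 6 ways of scaling or correcting the arrays, including the authors' log2 table. Most values lie close together except without scaling, where every member shown is lower than with it, and for DNAJB1, which lies near background and is 0.08 with the added normexp correction.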

How the data were processed

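RNA of 3 epidermal and 3 corneal samples was hybridised to single-colour arrays. The submitters' processing notes name Agilent Feature Extraction 10.7. Its deposited spot intensities are linear, background-subtracted and detrended per the file headers. The authors also deposited a log2 table with a median of 7.23 in each column. Each column correlated with that array's scanner signal (log2) at an r that rounded to 0.999 or 1.00, and ranked values of the columns lay within 0.0202 of each other, so the table holds uncentred, quantile normalized log2 values. It served as an alternative. No source used here says how the authors made it.

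From the processed signal, log2 values minus each array's 75th percentile over gene spots were averaged per probe after control spots and outlier flags were left out. Probes well above background on at least 3 of 6 arrays were kept, and the kept probe of highest mean stood for its gene, among members only over probes that the name rule covers (this excludes a GRPEL1 probe). Names came from the arrays' annotation and a RefSeq table of the assembly ARS-UI_Ramb_v3.0: 737 probes matched by accession, 524 by symbol, 123 by gene ID, 18 by synonym and 28 by description, and 39 member probes were named by hand from their annotation. Genome coordinates, promoters and proteins were not used here. Corneal minus epidermal differences were fitted with limma 3.58.1 (lmFit and eBayes) in R 4.3.3, tested on simulated data first, with Benjamini-Hochberg adjustment over all rows and a threshold of 0.05. Probes dim on all arrays of a group have only a bound there, given as at least N-fold for the processed signal scaled as above.

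The members and lists were chosen with earlier results of these data known. Named genes were CRYAB, CALR, DNAJA1 and DNAJB4, up to 5 called members of each compartment and direction, the 2 brightest and 2 least changed of each compartment, members with only a bound, up to 3 called genes of each pathway list and direction, and the measured markers. By that rule 43 genes were named, 21 of them members, and the other members and list genes were added after their values were seen. Alternatives covered scaling, background correction, dim probes, probes per gene, names, flags, the authors' table, a replicate block, array weights and each array left out.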

Additional observations from a re-analysis of the deposited data

How the results depend on the processing

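The results of CRYAB and PDIA5 kept direction and call under all alternatives, and those of CALR, DNAJA1, HSPA5, PDIA6 and CWC27 under all but normexp with every spot. That correction moved the median of all rows by −0.25 and called 186 rows higher and 211 lower. It left 1 member higher and 1 lower, 1 cytosolic member higher and 0 lower, and 1 ER member lower. It reversed CCT2 (0.055), CCT4 (0.034), DNAJB4 (−0.20), TBCD (−0.21), PAX6 (−0.26) and SQSTM1 (0.0052). Epidermal replicate 1 holds 7 spots with a local background over 10 times the array's median. Without such spots (chosen after seeing the data), the same correction called 3711 higher and 3160 lower and 9 and 8 members, with a member median of −0.00390, and VWF was 0.047. No scaling moved the median of all rows by −0.17, called 1469 higher (22.3% of calls, against 44.99%), 3 members and 3 cytosolic members higher and 6 cytosolic members lower, gave a member median of −0.23 and turned DERL1 (−0.039). It lost TCP1, DNAJC13, HSBP1, BAG1, TBCD and the unnamed isomerase, while DNAJB1 (−0.75) and HSPA4 (−0.36) passed.

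Median centring gave 2 cytosolic members lower and a member median of −0.0263, and no filter on dim probes gave 2 lower. With every probe as a row, and without names from descriptions, 1 ER row was higher, and the medians were −0.0306 and 0.0068. PDIA4 was 0.066 without those names. With each array left out, the cytosolic members lower numbered 2 to 4 (2 without epidermal replicate 3, corneal replicate 1 or corneal replicate 2) and the member median ran from −0.0795 to −0.0132 (without epidermal replicate 1). DCN ran from −0.18 (without epidermal replicate 1, where it passed as lower, limma adjusted p = 0.0115) to 0.21. The causes were not tested.

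Same-numbered samples did not deviate together (r = 0.02, −0.02 and 0.04). With the replicate block, 2684 rows were higher and 3340 lower, and 8 members were higher and 8 lower. CCT2, CRYAA and TBCD were lost and DNAJB1 passed (adjusted p = 0.0292 in limma). Of 24 members, 12 kept their call under all alternatives but normexp with every spot. A kept call includes not passing, as for CANX, HSP90AA1 and HSPA1A. With every probe as a row, the probe that stands for each gene was followed. Differing calls of other probes, as for CANX, CCT4 and the unchecked transcript named HSP90AA1, therefore do not enter this count. Dim signal limits DNAJB1 and CRYBB3.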
